A study of Drosophila melanogaster with 3 samples.

Results

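The genes described here encode the proteins of the mitochondrial ribosome of Drosophila melanogaster. They were taken as all protein-coding genes of the Release 6 (dm6) annotation whose symbols start with mRpL or mRpS, which gave 73 of the 13945 protein-coding genes on the 6 chromosome arms used (2L, 2R, 3L, 3R, 4 and X). Of the 73, 47 are named for the large subunit (mRpL) and 26 for the small subunit (mRpS). The subunit groups below follow these symbols only, and the place of each protein in the ribosome was not checked. Chromatin came from whole white prepupae, males and females pooled, of 1 transgenic line that stably expresses Smox with GFP at its C terminus, and was sheared by sonication to 200 to 800 bp and immunoprecipitated against GFP. The 3 samples are biological replicates of this 1 group, so no genotype, treatment or stage was contrasted. What drives the transgene, and whether untagged Smox remains in the line, is not given in the sources used here. Whole animals were used, so binding in one tissue cannot be told apart from binding in all.

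Mitochondrial ribosomes translate the few proteins that the mitochondrial genome encodes, all of them parts of the oxidative phosphorylation chain. Their RNA is made in the organelle, but their proteins are encoded in the nucleus, translated in the cytosol and imported. Some of these proteins descend from those of bacterial ribosomes and keep their numbers, and others were added in mitochondria. Smox is the SMAD transcription factor of the Activin branch of TGF-beta signalling, which in the fly acts in growth, neuronal remodelling and metabolism.

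A gene was called bound when a summit of the authors' reproducibility-thresholded list of 6622 peaks lay within 1 kb of any of its transcription start sites (TSSs). Ranks count from 1, the highest score of the authors' peak caller, either in the pooled list or in the list of 1 replicate, each of 30000 regions. Negative distances are upstream of the TSS.

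The DNA under 4 of the strongest members' summits is shown. At these 4 the summit lay in AT-rich sequence between a pair of gene starts. The summits of mRpL41 (pooled rank 22) and mRpL23 (pooled rank 47) are not shown. That of mRpL41 also lay between the starts, but that of mRpL23 lay in its 5′ UTR and not between them. Each run is 151 bases on the plus strand centred on the thresholded summit, from the RefSeq copy of Release 6. Capitals mark any of the 11 short elements searched, on either strand.
mRpS23 (chr2L:13835379-13835529): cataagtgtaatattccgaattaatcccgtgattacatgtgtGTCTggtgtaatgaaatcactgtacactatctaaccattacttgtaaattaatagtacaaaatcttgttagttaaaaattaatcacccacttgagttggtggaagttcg
mRpS10 (chr3R:15229455-15229605): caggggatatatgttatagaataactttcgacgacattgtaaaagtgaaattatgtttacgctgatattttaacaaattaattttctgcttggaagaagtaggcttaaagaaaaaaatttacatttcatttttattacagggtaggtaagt
mRpL24 (chr2L:4945392-4945542): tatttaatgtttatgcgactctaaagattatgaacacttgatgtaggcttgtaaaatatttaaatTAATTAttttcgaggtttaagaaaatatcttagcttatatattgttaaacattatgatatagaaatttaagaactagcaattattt
mRpL20 (chr3L:13018015-13018165): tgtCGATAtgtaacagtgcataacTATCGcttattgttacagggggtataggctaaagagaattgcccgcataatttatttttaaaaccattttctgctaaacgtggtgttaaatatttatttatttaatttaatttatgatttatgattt
The mRpS23 window holds 1 GTCT, the core letters of the SMAD binding element. The mRpS10 window holds none of the 11 elements, the mRpL24 window holds the homeodomain core TAATTA, and the mRpL20 window holds CGATA, part of the DRE element, once on each strand.

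Smox summits lay near 24 of the 73 genes (32.9%), against 18.9% of all protein-coding genes. Members are short, with a median length of 909 bp against 2166 bp for all genes, and 67 of them have 1 TSS (73.5% of all genes). Other genes of the same length class and number of TSSs were bound in 10.4% of cases. In the replicate lists, each cut to its 6622 strongest regions, 27, 24 and 26 members were bound in replicates 1, 2 and 3 (35.2% ± 2.09, SD, n = 3), against 20.7%, 20.6% and 22% of all genes and 11.4%, 11.3% and 12.6% of matched genes. The members were above both comparisons in every replicate, by more than the spread between replicates. That spread describes the measurement and not the choice of genes, which the replicates share. When a summit was counted only for the gene with the nearest TSS, 12 members (16.4%) were bound against 14.8% of all genes and 6.90% of matched genes. Under that count the members stood close to all genes and above matched genes. Peak intervals overlapped a TSS at 14 members (19.2%), against 9.09% of all genes.

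Where a pooled region was called near a member, it was mostly a thresholded peak. A pooled region of any rank lay within 1 kb of 28 members (38.4%), close to the 37.7% of all genes. Of these 28 members 24 (85.7%) had a thresholded peak, against 50.1% of all genes with a pooled region. No region of any list lay within 1 kb of 32 members (43.8%), against 39.8% of all genes.

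Genes named for the small subunit were bound more often than genes named for the large subunit. Of the 26 small subunit genes 13 (50%) were bound, and 14, 12 and 13 were in replicates 1, 2 and 3. Of the 47 large subunit genes 11 (23.4%) were bound, and 13, 12 and 13 were in the replicates. The lowest small subunit share among the replicates, 46.2%, was above the highest large subunit share, 27.7%. Genes numbered after bacterial ribosomal proteins, up to L36 and S21, were bound in 16 of 42 cases (38.1%), and genes with higher numbers in 8 of 31 (25.8%). The replicates gave 45.2%, 42.9% and 40.5% for the first set and 25.8%, 19.4% and 29.0% for the second. These ranges did not overlap either. Replicates share the same genes, so this spread describes the measurement and not the choice of genes. All protein-coding genes were bound in 18.9% of cases, and in 20.7%, 20.6% and 22% in the replicates. Genes with higher numbers were above that share in replicates 1 and 3 and below it in replicate 2. Large subunit genes were nearer to it than small subunit genes.

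**Figure D1:**
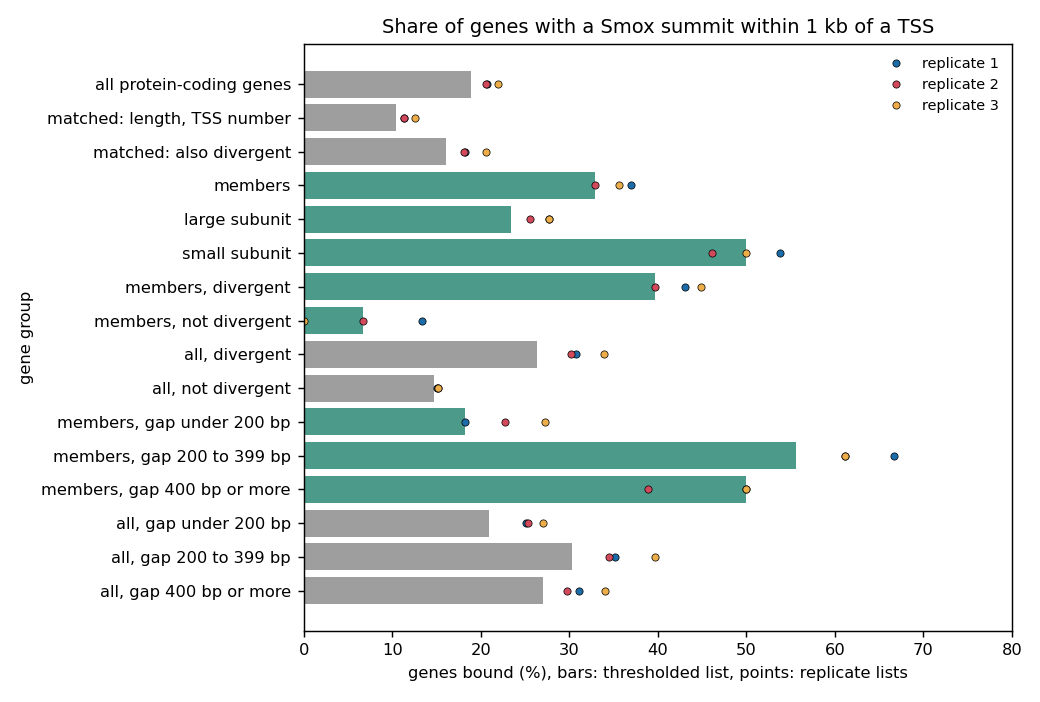
Percentage of genes with a Smox summit within 1 kb of a TSS (x axis) by gene group (y axis); bars are the thresholded list, points the 3 replicate lists cut to 6622 regions, green the mitochondrial ribosomal protein genes and grey the comparison genes. Bars for all members (32.9%) and for small subunit genes (50%) exceed that for all genes (18.9%), and members with no divergent neighbour are at 6.67%.

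The plot of shares by gene group sets the subunits beside the comparison genes. Within the members the points of the replicates stay near their bars, except in the smallest groups.

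Among the 50 strongest peaks were those of 4 members, when 0.323% of all genes (45 genes) have such a peak. mRpS23, a small subunit protein added in mitochondria, had a peak of pooled rank 12, and its ranks in replicates 1, 2 and 3 were 11, 13 and 12. The summit lay 382 bp upstream of its TSS, at -388, -384 and -392 bp in the replicates. All 3 replicates thus placed it at nearly the same rank and position.

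mRpL41, a large subunit protein without a bacterial counterpart, followed at pooled rank 22, with replicate ranks of 22, 33 and 24. mRpS10, of the head of the small subunit, had pooled rank 23 and replicate ranks of 25, 38 and 19. mRpL23, whose bacterial counterpart lies at the exit of the peptide tunnel, had pooled rank 47 and replicate ranks of 46, 62 and 42. Replicate 2 gave the lowest standing of all 4 genes. Summits of the 3 replicates spanned 11 bp at mRpL41, 9 bp at mRpS10 and 12 bp at mRpL23.

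A further 3 members had peaks among the strongest 1000, for 7 in all, when 5.13% of all genes have one. mRpL24, known in bacteria as an early assembly protein of the large subunit, ranked 313 in the pooled list and 373, 311 and 276 in the replicates. mRpL20, also an assembly protein in bacteria, ranked 801 and 768, 843 and 987. mRpS2 ranked 999 and 1373, 1011 and 808. Each of these 3 genes was bound in every replicate.

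The other 17 bound members ranked from 1310 (mRpS6) to 6552 (mRpL50) in the pooled list. In order of rank they were mRpS6, mRpL34, mRpS7, mRpL37, mRpL33, mRpS26, mRpS21, mRpS22, mRpS17, mRpS31, mRpS18B, mRpS25, mRpL19, mRpL2, mRpS18A, mRpL27 and mRpL50. The median pooled rank of the 24 bound members was 2456.5, close to the 2331 of all bound genes.

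mRpS6, mRpS7 and mRpS17 bind the small subunit RNA in bacteria, and their peaks had pooled ranks of 1310, 1689 and 3491. mRpS6 ranked 1366, 1477 and 1157 in the replicates, mRpS7 ranked 1712, 2033 and 1648, and mRpS17 ranked 3442, 4132 and 3760. Replicate 2 ranked each of the 3 lowest. mRpS18A and mRpS18B are copies of the gene for one bacterial protein, and both were bound, at pooled ranks 5168 and 3801. The replicates disagreed more at these ranks: mRpS18A ranked 4260, 10773 and 4613, and mRpS18B 3419, 3986 and 8330. mRpS18C, the remaining copy, was not bound.

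Of the 24 bound members 16 were also bound in all 3 replicate lists, 7 in 2 of them and 1, mRpL50, in 1. Those bound in 2 were mRpL2, mRpL19, mRpL27, mRpL37, mRpS18A, mRpS18B and mRpS25. At mRpL37, a large subunit protein added in mitochondria, replicates 1 and 3 ranked the region 2012 and 1846, while the list of replicate 2 held no region within 1 kb. At mRpL2, of the peptidyl transferase centre, the list of replicate 1 held none, and replicates 2 and 3 ranked it 5047 and 6616.

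**Figure D2:**
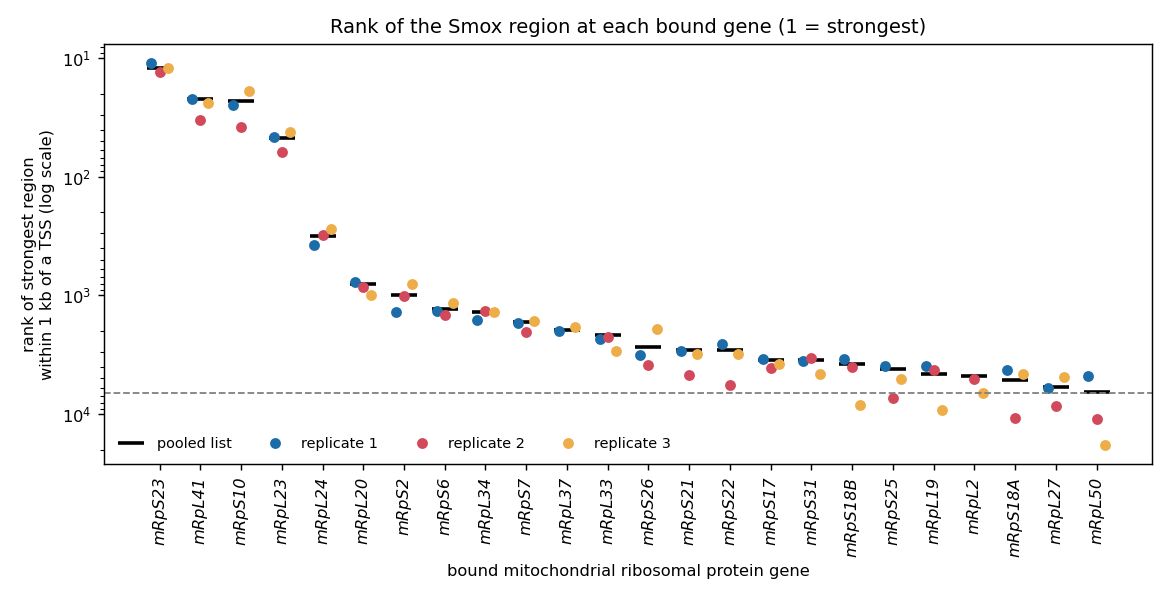
Rank of the strongest region within 1 kb of a TSS (y axis, log scale, 1 at the top) for each bound member (x axis); black bars are the pooled list, coloured points the 3 replicates, and the dashed line the length of the thresholded list, 6622. Points cluster on the bar from mRpS23 (rank 12) to mRpL33 (rank 2165) and scatter more among the weakest peaks, with mRpL37 and mRpL2 lacking 1 replicate each.

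The plot of ranks by gene shows mRpS23 first in every replicate, while replicate 3 placed mRpS10 ahead of mRpL41 and mRpS2 ahead of mRpL20. The scatter is widest at mRpL50, which ranked 4791, 10954 and 18289 in replicates 1, 2 and 3.

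Close to the threshold, mRpL27 (pooled rank 5938) and mRpL50 (6552, score 104) were inside. mRpS30 (pooled rank 6714, score 101) was just outside, and its replicate ranks of 6629, 6985 and 7190 all fell beyond 6622 as well. mRpS5 at rank 9742, mRpL22 at 10326 and mRpL13 at 29872 were further out. No other unbound member had a pooled region.

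A few unbound members had regions in the replicate lists that the pooled list did not hold. mRpL11, whose bacterial counterpart forms the stalk base where translation factors bind, ranked 3108, 2285 and 2946 in replicates 1, 2 and 3, with summits at -156, -136 and -165 bp. mRpL21, a large subunit protein, ranked 3214, 3138 and 3002, with summits at -217, -198 and -193 bp. Both were thus at like ranks and positions in every replicate, yet the nearest pooled summit lay 11107 bp from mRpL11 and 5647 bp from mRpL21. Of the 2138 genes bound in all 3 replicate lists (15.3% of all genes), 75 likewise had no pooled region within 1 kb, and 18 members were bound in all 3. Another 2 unbound members, mRpL18 and mRpL54, were bound in replicates 2 and 3, and 4 (mRpL17, mRpS5, mRpS16 and mRpS24) in 1 replicate. Of these, mRpS5 did have a pooled region, the one at rank 9742.

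Most members stand head to head with another gene. A protein-coding gene on the other strand started within 1 kb upstream of 58 members (79.5%), against 36.2% of all genes. This property was chosen for description after the values had been seen. Of these 58 members 23 (39.7%) were bound, and 25, 23 and 26 were in the replicates, against 26.4% of all genes with such a neighbour. Of the 15 members with no such neighbour 1 (6.67%), mRpL19, was bound, and 2, 1 and 0 were in the replicates, against 14.7% of all genes without one. Genes matched on length, TSS number and the presence of a head-to-head neighbour were bound in 16.1% of cases, and in 15.8% when matched on the width of the gap instead of its presence. The share of members, 32.9%, was above both.

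Bound members had wider gaps to that neighbour than unbound members, with medians of 392 and 192 bp, whereas the medians were 309 and 290 bp for all bound and unbound genes. With a gap under 200 bp, 4 of 22 members (18.2%) were bound, against 21% of all genes with such a gap. With 200 bp to under 400 bp, 10 of 18 (55.6%) were bound, against 30.3%. With 400 bp or more, 9 of 18 (50%) were bound, against 27%. Every replicate kept the narrow gaps lowest, at 18.2% to 27.3% of members.

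One summit was often within 1 kb of both starts. Of the 24 summits, 19 lay between the member's start and the neighbour's start nearest to the summit, and 18 in the narrowest gap between the genes, which excludes mRpL2. For 20 of the neighbours the same summit was also their strongest thresholded summit within 1 kb of a TSS. These counts have no share of all bound head-to-head genes beside them here, so they are not shown to be particular to the members. The member had the nearest TSS in 12 cases, the neighbour in 11, and RpL27A, a cytosolic ribosomal protein gene, in 1. The lists do not show which of the genes at a shared summit responds to Smox.

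At the strongest member, mRpS23, the start of the ArfGAP gene CenG1A was 110 bp from the summit and that of mRpS23 was 382 bp away. At mRpS10 the arginine methyltransferase gene Art3 was 122 bp away and mRpS10 was 135 bp away. At mRpL24 the geranylgeranyl transferase gene betaggt-I was 112 bp away and mRpL24 was 106 bp away. The last 2 summits sat near the middle of gaps of 257 and 218 bp. Other neighbours included Cdk1, the mitotic kinase, at mRpS7, Dg, dystroglycan, at mRpL34, and Nop60B, the rRNA pseudouridine synthase, at mRpS17.

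Summits at members were upstream and close. Of 24, 22 were upstream (80.9% of all bound genes), and 19 were within 250 bp of the TSS (54.0% of all bound genes). The median position was -166.5 bp, against -168 bp for all bound genes. The summits of the 3 replicates at a member spanned a median of 43.5 bp, and 14 members had a span of at most 50 bp.

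The 2 summits that were not upstream were at mRpL23 and mRpL27. At mRpL23 the summit was 65 bp downstream of a TSS, in the 5′ UTR, at 65, 65 and 53 bp in the replicates. At mRpL27 it was 938 bp downstream in the 3′ UTR of mRpL27, 300 bp from the start of RpL27A. Replicates 1 and 2 instead had their strongest mRpL27 region upstream, at -164 and -70 bp, and replicate 3 at 997 bp. The thresholded call at mRpL27 therefore rests on a summit nearer to another gene.

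**Figure D3:**
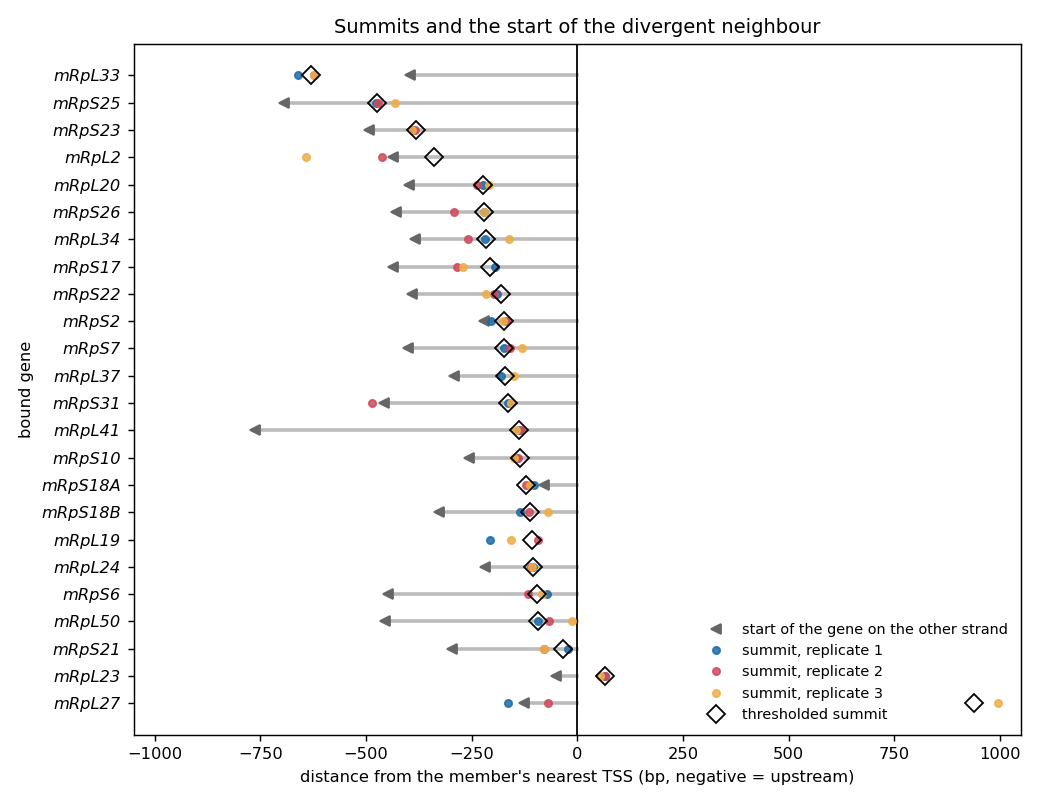
Distance of Smox summits from the TSS of each bound member (x axis, bp, negative upstream) for the 24 genes (y axis); diamonds are thresholded summits, points the replicate summits, triangles the start of the head-to-head neighbour nearest to the summit and grey lines the stretch between the starts. Summits lie between the drawn starts for 19 genes, and that of mRpL27 alone lies 938 bp downstream.

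The plot of summit positions shows replicates grouped tightly at most genes. The exceptions are mRpL27, mRpS31 (one replicate at -486 bp, the others at -164 and -157 bp) and mRpL2. At mRpL2 the start of its neighbour FoxK that is nearest to the summit is drawn, while another FoxK start, 64 bp from mRpL2, sets the gap used for the counts.

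Promoters of the members shared a sequence that the rule did not use. CAGCTG, a palindromic E-box of the kind bound by basic helix-loop-helix factors, was in the promoter window, 250 bases before to 50 after the TSS, of 40 of 73 members (54.8%), against 17.7% of all promoters. With a head-to-head neighbour it was in 53.4% of members and 22.0% of all promoters. It was in 9.78% of cytosolic ribosomal protein genes and in 32.5% of Complex I genes. Bound and unbound members had it alike, in 12 of 24 (50%) and 28 of 49 (57.1%).

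Copies near the start of 10 bound members are shown because of their place, 1 per gene. Those of mRpL41 and mRpS17, at -9 and 16 bp, are not printed. Each line has 30 bases in the direction of the gene, with CAGCTG in capitals and the position of its first base relative to the gene's 5′ end in bp.
mRpL23, -28 (chr3L:2373715-2373744, minus strand): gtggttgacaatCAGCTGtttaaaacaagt
mRpS2, -11 (chr2L:4850413-4850442, minus strand): aacactacccacCAGCTGtttaccaaaatc
mRpS21, 2 (chr3R:13381790-13381819, minus strand): agtgatattcatCAGCTGtttagcagtaca
mRpS25, 6 (chrX:14582959-14582988, minus strand): tagccgaccgatCAGCTGttcgcattacac
mRpL33, 7 (chrX:4322207-4322236, minus strand): gataggcgcagtCAGCTGttcttcgttcct
mRpL19, 8 (chr3R:8674105-8674134, plus strand): tatcggtgctgcCAGCTGattatagtgcgg
mRpL2, 10 (chr3L:11120845-11120874, plus strand): aacgccgcgtaaCAGCTGttttcagccgca
mRpS6, 14 (chr3L:4364552-4364581, plus strand): ctttccttgcatCAGCTGttaacactatca
mRpL24, 20 (chr2L:4945324-4945353, minus strand): ttcagttctcaaCAGCTGattgcaagccgc
mRpS18B, 20 (chr2L:20097216-20097245, minus strand): tgtatcggaaaaCAGCTGatccgccggctc
Of the 45 copies in members, 28 (62.2%) lay within 25 bp of the TSS, against 30.1% of the 2776 copies in all promoters. TT followed 24 copies (53.3%), against 23.6% of all copies, and it followed 8 of the 15 copies in bound members. The position and the TT were looked at after the lines had been seen.

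Most E-box copies of the promoter windows lay apart from the Smox summit. The 15 copies in bound members lay a median of 129 bp from the summit (37 to 638 bp), and 13 of them lay more than 75 bp away. Only copies in the promoter window were counted here. Copies close to a summit outside that window, as at mRpL33, mRpS25 and mRpL2, could therefore not enter these distances. Within 75 bp of the summits, 2 of 24 windows (8.33%) held CAGCTG, against 4.56% of all 6600 thresholded summit windows.

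**Figure D4:**
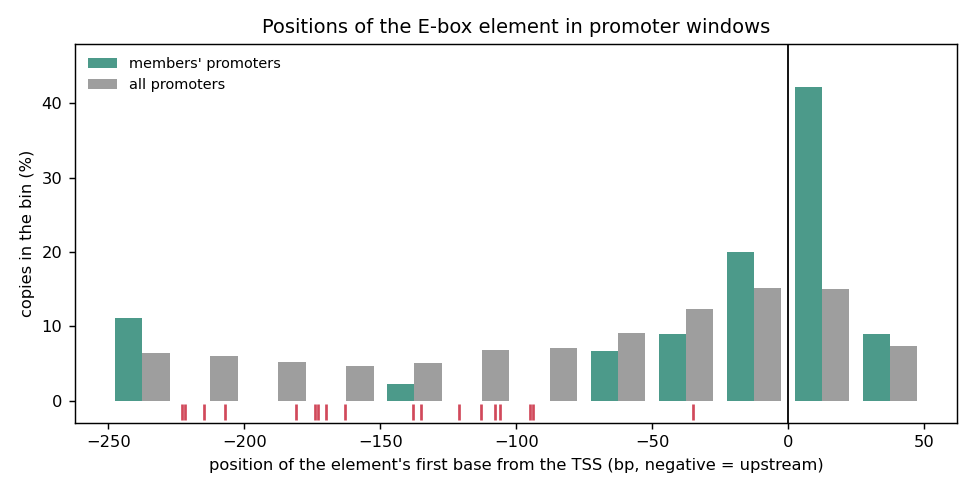
Percentage of CAGCTG copies (y axis) by position from the TSS in bins of bp (x axis, negative upstream), for members (green) and all promoters (grey), with red ticks at the summits of bound members that fall in the window. The members' copies peak just after the TSS, while all ticks lie upstream of it.

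The plot of E-box positions sets the copies beside the summits. The tallest bin of the members starts at the TSS, and 22 of the 24 summits lie upstream of the TSS.

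The other elements were searched as these letters on both strands, and a match is a description only. TATCGATA, the DRE element of housekeeping promoters, was in 20.5% of members and 9.36% of all promoters, but among promoters with a head-to-head neighbour in 20.7% of members and 15.8% of all. CGATA, which lies within it, was in 58.9% and 47.4%, and with such a neighbour in 56.9% and 59.2%, which turns the direction. GAGAG, the GAGA factor element, was in 16.4% and 29.7%, and with such a neighbour in 17.2% and 23.5%. TATAAA was in 46.6% and 45.8%, and with such a neighbour in 43.1% and 48.1%, also the other way. TAATTA was in 20.5% and 20.4%, and with such a neighbour in 24.1% and 23.4%. GGTCACAC, a core promoter element of the fly, was in 11.0% and 7.70%, and with a head-to-head neighbour in 12.1% and 13.2%, again the other way. CACGTG was in 6.85% and 4.20%, and GGCGCC in 5.48% and 4.54%. The Ewg-type element, of the fly counterpart of NRF1, was in no member promoter and in 0.208% of all.

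The SMAD letters GTCT were in 61.6% of member promoters and 70.3% of all. In the summit windows GTCT was in 5 of 24 members (20.8%), against 41.2% of all thresholded windows. These windows were AT-rich, with a GC content of 29.2% ± 5.22 (SD, 24 windows) against 33.3% for all thresholded windows. Both GTCT and GC content were thus lower at members' summits, and the part of base composition in the GTCT share was not tested.

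Lists of other mitochondrial gene expression genes had smaller bound shares than the members, and cytosolic ribosomal protein genes a larger one. The share of all protein-coding genes was 18.9%, and those of the synthetase and RNA processing lists were close to it. tko and bonsai, mitochondrial ribosomal proteins of the small subunit under other symbols, had no region in any list. Of 9 translation factor genes 1 (11.1%) was bound, waw, at pooled rank 6180. Of 19 genes for aminoacyl-tRNA synthetases and their partners 3 (15.8%) were bound, LeuRS-m at rank 444, ArgRS-m at 2634 and Slimp at 4171. Of 11 genes of mitochondrial transcription and RNA processing 2 (18.2%) were bound, PNPase, a mitochondrial exoribonuclease, at rank 5 and the termination factor family gene mTerf3 at 4820.

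Of 92 cytosolic ribosomal protein genes 53 (57.6%) were bound, with 45, 63 and 60 in the replicates, led by RpS19b at rank 240. With and without a head-to-head neighbour, 33 of 55 and 20 of 37 of them were bound. Of 40 genes for subunits of Complex I, the first enzyme of the respiratory chain, 7 (17.5%) were bound, close to the 18.9% of all genes. The replicates gave 9, 6 and 12. ND-ASHI led at rank 273, with a summit 236 bp upstream and a gap of 164 bp to its neighbour Fum1. With a head-to-head neighbour 6 of 22 Complex I genes were bound, and without one 1 of 18.

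On the X chromosome 2 of 11 members (18.2%), mRpL33 and mRpS25, were bound, against 23.5% of all X-linked genes. Neither had the TSS nearest to its summit. The summit was 631 bp from mRpL33 and 236 bp from norpA, in whose 5′ UTR it lay. The other was 475 bp from mRpS25 and 220 bp from nmdyn-D6. On the autosomes 22 of 62 (35.5%) were bound, against 18.1% of all autosomal genes.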

How the data were processed

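ChIP-seq peak lists of 3 biological replicates of 1 group were used, with replicate numbers from the labels. Per the deposited file listings, the authors called peaks and background regions on each replicate and on the pooled replicates, each with 1 control alignment, and thresholded them by irreproducible discovery rate. Aligner, peak caller and cutoff: not given in the sources used here. The deposited score has no stated scale and served for ranks inside a list. The deposited −log10 q-value served for an alternative ranking, and the deposited summit offset (bp) gave positions. No read counts were used, so the depth of each replicate is unknown. Lists on dm6 were used and those on dm3 were not. TSSs came from Ensembl release 115 for BDGP6.54 and sequence from RefSeq, both of the Release 6 assembly, and no region ran past a chromosome end.

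The members, lists and elements were chosen with earlier results of these data known. Matched shares weight the other genes by the members in each of 3 length classes and TSS number up to 8. With 1 group and no contrast, no test was run, and gene counts are descriptions. Named genes are all bound members, unbound members next to the threshold or bound in all 3 replicate lists, and up to 4 bound genes per pathway list. Genes without a summit within 1 kb are named only for their part in a count. One listed translation factor, mEFG2, matched no symbol. Python 3.11.15, numpy 2.4.6 and matplotlib 3.10.9 were used, and the functions were tested on simulated data.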

Additional observations from a re-analysis of the deposited data

How the results depend on the processing

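The share of members bound, 32.9%, was 26.0% with summits within 250 bp, 30.1% within 500 bp and 37.0% within 2 kb. The share of all genes, 18.9%, was then 11.6%, 15.7% and 24.0%. The share of matched genes, 10.4%, was 6.89%, 8.50% and 16.2%. It was 16.1% with matching also on a head-to-head neighbour and 15.8% on the gap class. With the strongest 1000 peaks 7 members (9.59%) were bound, against 5.13% of all genes, and 23.3% with peaks covered in all 3 replicates. Counting only the gene with the nearest TSS gave 12 members (16.4%, against 14.8% of all genes), and allowing a margin of 100 bp gave 24.7%. Requiring the interval to overlap the TSS gave 14 (19.2%, against 9.09% of all genes). The 23.3% and 24.7% have no share of all genes beside them here. The mean count over replicate lists, 25.7 ± 1.53 (SD, n = 3), was 13.7 with lists of 3000 regions, and 25 to 26.5 leaving out each replicate. That of members with a head-to-head neighbour was 24 to 25.5 leaving out each replicate. The 13.7 with lists of 3000 regions likewise has no count of all genes beside it here. Ranking by −log10 q-value, using the 5′ end of the gene record, and adding tko and bonsai each left 24 members bound. The neighbour, gap and margin alternatives were chosen after seeing the data.

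No paired analysis was possible because the samples form 1 group. Depth is unknown, so a missing region is not evidence of no binding. A summit between a pair of starts cannot be assigned to either gene, and the excess over all genes depends on that assignment, as the nearest-TSS count shows.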

Other observations

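The longest run of letters shared by a pair of members' summit windows was 13 bases over all 276 pairs, and it was looked for after the windows had been read. The windows of mRpL20 and mRpS6 share ATCGCTTATTGTT, and those of mRpL33 and mRpS18A share TATTTTTTTTACG. Each run was in 2 of the 6600 thresholded summit windows on the chromosome arms. Those 2 are the pair it was chosen from, so only its absence from the other windows was not fixed by the choice.

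The 24 summits of bound members were 24 distinct summits, so no pair of members was bound through the same one. For 22 other protein-coding genes, one of these 24 was the strongest thresholded summit within 1 kb of a TSS.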
